A study of Xenopus laevis with 4 samples.

Results

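The subject is the transfer RNA (tRNA) genes of Xenopus laevis and their place among regions of methylated DNA in the early embryo. Every gene of type tRNA on the 18 chromosomes of the version 10.1 genome annotation was taken, which gave 2612 of the 44456 genes in the table. No measured value entered that choice. Each gene was grouped by the amino acid and the anticodon in its symbol, so that trnak-cuu is a lysine tRNA gene with anticodon cuu. The genes were then split by position. An array was defined as 20 or more tRNA genes that start in the same Mb of a chromosome, and 33 arrays held 2075 genes. The other 537 genes are called scattered.

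The study captured methylated DNA from wild-type X. laevis embryos at the 256-cell stage, 4.5 h after fertilisation and before the zygotic genome is switched on. Whole embryos were used, 250 per replicate. Sheared DNA was pulled down with H6-GST-MBD, a tagged methyl-CpG binding domain that holds on to DNA methylated at CpG sites, and was sequenced beside unenriched Input DNA. There were 2 MBD capture libraries and 2 Input libraries, and the Input libraries enter here only through the peak calls made against them. The replicates were separate pools of embryos, described in the methods as independent biological replicates.

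tRNA genes are short and are transcribed by RNA polymerase III from promoter elements that lie within the gene itself, so a mark over the gene body also covers its promoter. In X. laevis many tRNA genes stand in tandem repeats, with genes for several amino acids in 1 repeat unit. Zygotic transcription by RNA polymerase III, like that by RNA polymerase II, is largely silent in the first cleavages of the Xenopus embryo. X. laevis is an allotetraploid with an L and an S copy of most chromosomes, and the letters in the chromosome names give the copy.

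Replicate 1 held 17645240 sequence tags and 131303 peaks, and replicate 2 held 23909019 tags and 222771 peaks. A peak had a median width of 501 bp in both. The peak files hold positions and no height, so every value below says whether a gene was touched by a peak by 1 bp or more, not how strong the enrichment was. A gene outside the peaks did not reach the caller's threshold, and that does not show that it was unmethylated. There is 1 group of 2 libraries and tRNA genes are not replicates, so no test was run, and both replicates are given side by side.

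tRNA genes lay in peaks more often than a position drawn from the chromosomes, but the replicates differed widely in how often. In replicate 1 a peak touched 206 of the 2612 genes, or 7.89%, and in replicate 2 a peak touched 809, or 31.0% (mean 19.4% ± 16.3, SD, n = 2). An interval of 73 bp, the median length of a tRNA gene, touched a peak at 3.32% of all chromosome positions in replicate 1 and at 6.06% in replicate 2. Both replicates had a peak at 132 genes, or 5.05%, beside 1.84% of all positions. Those 132 genes were 64.1% of the genes in a peak in replicate 1 and 16.3% of those in replicate 2. Another 74 genes were in a peak in replicate 1 alone and 677 in replicate 2 alone, while 1729 were in none. Shortening the list of replicate 2 to a like number of peaks changed its share little. Its peaks with array genes stood early, at a median of 0.419% of the list. Shortening could thus remove few of them, and it was no test of list length. With the list of replicate 2 shortened to 134118 peaks, in the order listed, the share of array genes in its peaks was 34.7%, beside 35.7% with the full list and 8.67% in replicate 1.

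The arrays carried most of the signal. Among the 2075 array genes 180 (8.67%) were in a peak in replicate 1, 740 (35.7%) in replicate 2 and 126 (6.07%) in both. Among the 537 scattered genes 26 (4.84%), 69 (12.8%) and 6 (1.12%) were. Scattered genes were thus above the share of all positions in each replicate taken alone and below it in the peaks that both replicates shared. The 98 scattered genes that were alone in their Mb were not above it in replicate 1, at 1.02%. In replicate 2 they were near it, at 6.12%. Other short RNA genes gave a scale. Peaks in both replicates touched 15.7% of 375 rRNA genes, which are also repeated, 2.39% of 377 snRNA genes and 0.345% of 579 snoRNA genes.

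The enrichment at array genes was set on a broad base. In replicate 2 peaks covered 34.8% of the bases of array genes and 17.1% of the bases between neighbouring genes no more than 10 kb apart. In replicate 1 the shares were 8.05% and 5.46%. These shares pool all arrays. Within single arrays the gap in replicate 2 varied, with 77.5% against 49.9% in the 260-gene array of 3S and 98.2% against 93.5% in the 63-gene array of 3L. Spacers were covered more than genes in 8 of the 33 arrays in replicate 1 and in 10 in replicate 2. The same quantity over whole chromosomes was 2.98% in replicate 1 and 5.48% in replicate 2. At scattered genes the difference between gene and spacer was small, 4.81% against 3.48% in replicate 1 and 12.8% against 10.4% in replicate 2.

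**Figure D1:**
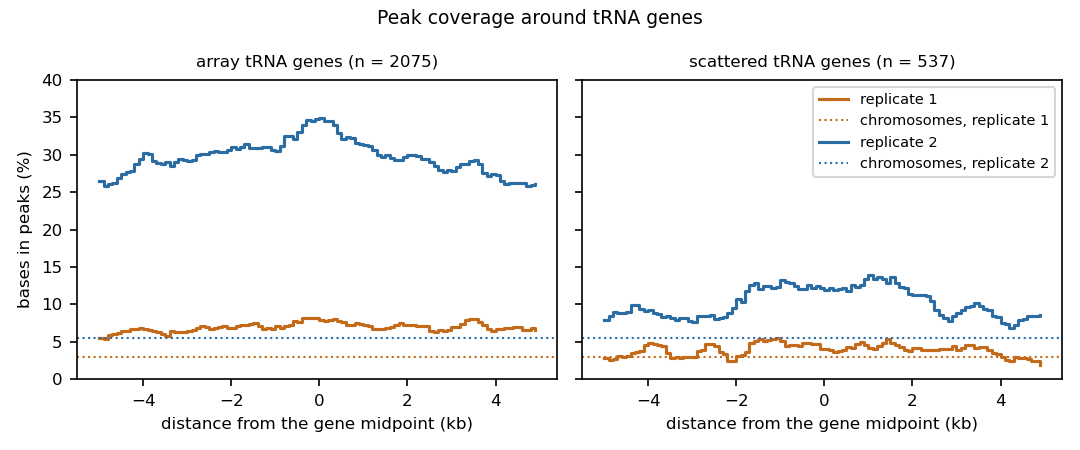
Share of bases in peaks (y axis, %) by distance from the midpoint of the tRNA gene (x axis, kb) for array genes on the left and scattered genes on the right. Orange lines are replicate 1, blue lines replicate 2 and dotted lines the share over the 18 chromosomes. At array genes replicate 2 stands at 34.9% beside the midpoint and at 26.4% at the left edge of the window. Scattered genes show a broad rise without a sharp peak at the gene. Replicate 2 there stands at 11.9% beside the midpoint, 13.9% at 1 kb to its right and 7.92% at the left edge. Replicate 1 stands at 3.98% beside the midpoint and 2.84% at that edge.

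The arrays differed widely in replicate 2, and most of them were low. In 11 of the 33 arrays 50% or more of the genes were in its peaks, in 20 arrays fewer than 10% were, and only 2 arrays lay between. The 11 arrays held 935 genes, of which 665 (71.1%) were in peaks in replicate 2 and 130 (13.9%) in replicate 1. The 20 low arrays held 1032 genes, of which 3.49% were in peaks in replicate 2 and 2.62% in replicate 1, both under the share of all positions. The arrays were sorted by replicate 2 itself, so its contrast is a description, and replicate 1 is the independent view of the same groups. In replicate 1 no array reached 50%, and the highest share was 31.0%. No array had 50% or more of its genes in a peak in both replicates, and the highest share was 21.1%. At least 1 gene was in a peak in 20 arrays in replicate 1, in 25 in replicate 2, and in 17 at the same gene in both. In 6 arrays with 231 genes no gene was in a peak in either replicate.

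**Figure D2:**
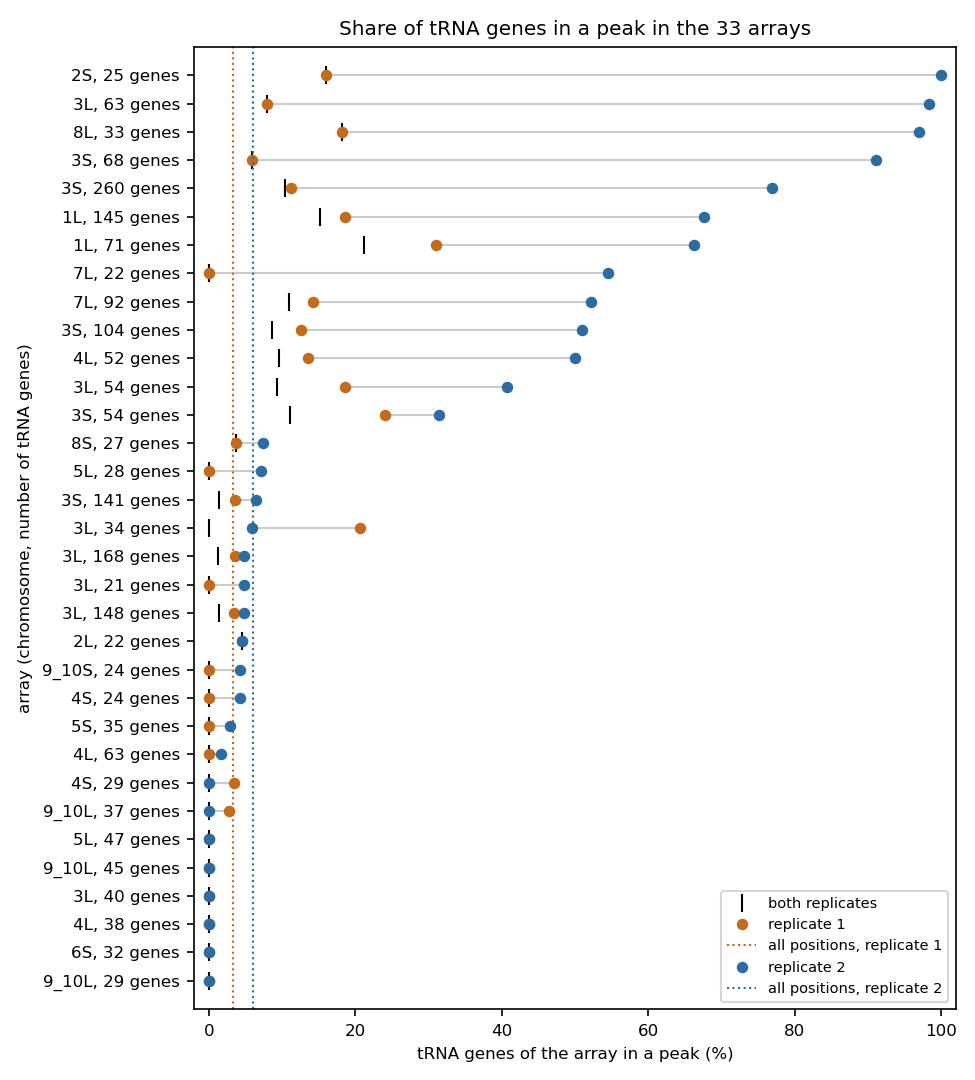
Share of tRNA genes in a peak (x axis, %) in each of the 33 arrays (y axis, named by chromosome and number of tRNA genes), ordered by replicate 2. Orange and blue points are replicates 1 and 2, black ticks genes in a peak in both, and dotted lines the share of all chromosome positions. Replicate 2 runs from 0 to 100% and replicate 1 from 0 to 31.0%.

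The array with most genes lies on chromosome 3S at 120427488-120986863 and holds 260 tRNA genes of 12 anticodons. In replicate 1 a peak touched 29 of them, in replicate 2 200, and in both 27. It holds the earliest-listed tRNA peaks of both replicates. The peak at the top of the list of replicate 2 is a single block of 29280 bp (3S, 120686294-120715573) over 65 tRNA genes. Replicate 1 had no such block, but its peaks listed at places 5, 8, 9, 11 and 13 all fall inside it, each 501 to 934 bp wide. The files give no other measure of strength, and that the order of the list follows strength is an inference from its layout.

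The next arrays on the same arm also had 50% or more of their genes in peaks in replicate 2. The 104-gene array of 3S (121105021-121437475) had 13 genes in peaks in replicate 1, 53 in replicate 2 and 9 in both, and a 21677-bp peak of replicate 2 covered 46 of them. The 68-gene array of 3S (122059414-122755395), built mostly of isoleucine and proline genes, had 4, 62 and 4. All 4 genes found in replicate 1 were thus among those found in replicate 2.

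Both large arrays near the start of chromosome 1L carried peaks in both replicates. The 145-gene array (4738979-4852295) had 27 genes in peaks in replicate 1, 98 in replicate 2 and 22 in both. The 71-gene array (7141449-7688351) had 22, 47 and 15, which are the 31.0% and 21.1% given above as the highest of any array in replicate 1 and in both. Nearly all genes of both arrays are for arginine, histidine, valine and glutamate tRNAs, and the larger array also holds 1 alanine and 1 tyrosine gene. The 92-gene array of 7L (110549494-110620883) had 13, 48 and 10. It is mostly of serine, leucine, proline and asparagine genes, with 4 methionine genes and 1 isoleucine gene.

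A pair of arrays with 63 genes each shared the last place among the 10 largest, and they were opposites. The array of 3L at 11461284-11502026 alternates lysine (trnak-cuu) and glycine (trnag-gcc) genes, and 62 of its genes were in peaks in replicate 2, 5 in replicate 1 and 5 in both. The array of 4L at 25069747-25305869, in which tryptophan genes (trnaw-cca) are the most numerous, had 1 gene in a peak in replicate 2 and none in replicate 1. The remaining 3 of the largest arrays were low as well. They are the 168-gene array of 3L (153133070-153897446; 6, 8 and 2 genes in peaks in replicate 1, replicate 2 and both), the 148-gene array of 3L (145052760-145595529; 5, 7 and 2) and the 141-gene array of 3S (127477780-127981013; 5, 9 and 2). Arrays of similar size thus differed widely in replicate 2.

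In the arrays with 50% or more of their genes in peaks in replicate 2, peaks of that replicate covered more of the array's span than of the rest of its Mb. These arrays were picked by the same peaks, so that contrast was partly set by the choice. Over the span of the 63-gene array of 3L peaks covered 74.0% of the bases in replicate 2 and 15.5% in replicate 1, and over the rest of that Mb 4.10% and 3.10%. For the 145-gene array of 1L the shares were 54.4% and 16.1% inside and 4.64% and 2.71% outside. For the 92-gene array of 7L they were 41.1% and 10.1% inside and 5.14% and 2.29% outside. In these 3 arrays the rest of the Mb was near the chromosome-wide share in both replicates. The 260-gene array of 3S stood at 21.1% inside and 8.59% outside in replicate 2 and at 5.97% and 3.73% in replicate 1. In replicate 1 the 68-gene array of 3S (2.34% and 2.37%) and the 22-gene array of 7L (2.68% and 3.09%) had no more inside than outside. The array of 47 leucine genes on 5L (all trnal-uaa, 45783733-45827826) was the reverse, with no peak over its span in either replicate beside 4.52% in replicate 2 and 3.13% in replicate 1 over the rest of its Mb. It was named after its values were seen.

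Within several arrays the peaks followed the repeat unit. The clearest case is the first 177 genes of the 260-gene array of 3S, a run with no gap over 10 kb. It holds 13 complete units of 8 genes in the same order: alanine (trnaa-ugc), leucine (trnal-cag), lysine (trnak-uuu), phenylalanine (trnaf-gaa), tyrosine (trnay-gua), methionine (trnam-cau) at neighbouring places 6 and 7, and asparagine (trnan-guu). The median distance from 1 trnaa-ugc gene to the next in the run was 3187 bp, and among the 13 units each gene kept its place to within 2 bp. In replicate 2 a peak touched 13 of 13 genes at each of the alanine, leucine, lysine, phenylalanine, tyrosine and asparagine places. At both methionine places it touched 0 of 13. Over the unit peaks of replicate 2 covered fewer than 50% of the units only from 1600 to 2500 bp after the start of the alanine gene, a stretch of 900 bp that holds both methionine genes. In replicate 1, with far fewer peaks, 3 of the 13 asparagine genes and 1 of the 13 lysine genes were in a peak and no methionine gene was.

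Over the whole 177-gene run 1 of 41 methionine genes was in a peak in replicate 2. All 22 alanine, all 23 leucine, all 24 phenylalanine and all 22 tyrosine genes were. The lysine genes followed with 23 of 24 and the asparagine genes with 18 of 21. The same methionine anticodon was covered elsewhere. In the second long run of the same array, 71 genes with 9 complete units of lysine, methionine, tyrosine, glycine (trnag-ucc), glutamate (trnae-uuc), alanine (trnaa-agc) and phenylalanine genes, replicate 2 had all 9 genes at every place in its 29280-bp block, methionine included. A related unit in the 104-gene array of 3S placed 7 of 7 methionine genes in a peak.

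Replicate 1 had its own order within that second unit. Its peaks touched 5 of 9 glycine genes, 4 of 9 glutamate genes and 1 of 9 alanine genes, and no lysine, methionine, tyrosine or phenylalanine gene. The short peaks of replicate 1 thus sat over a narrow part of the unit that replicate 2 covered whole.

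**Figure D3:**
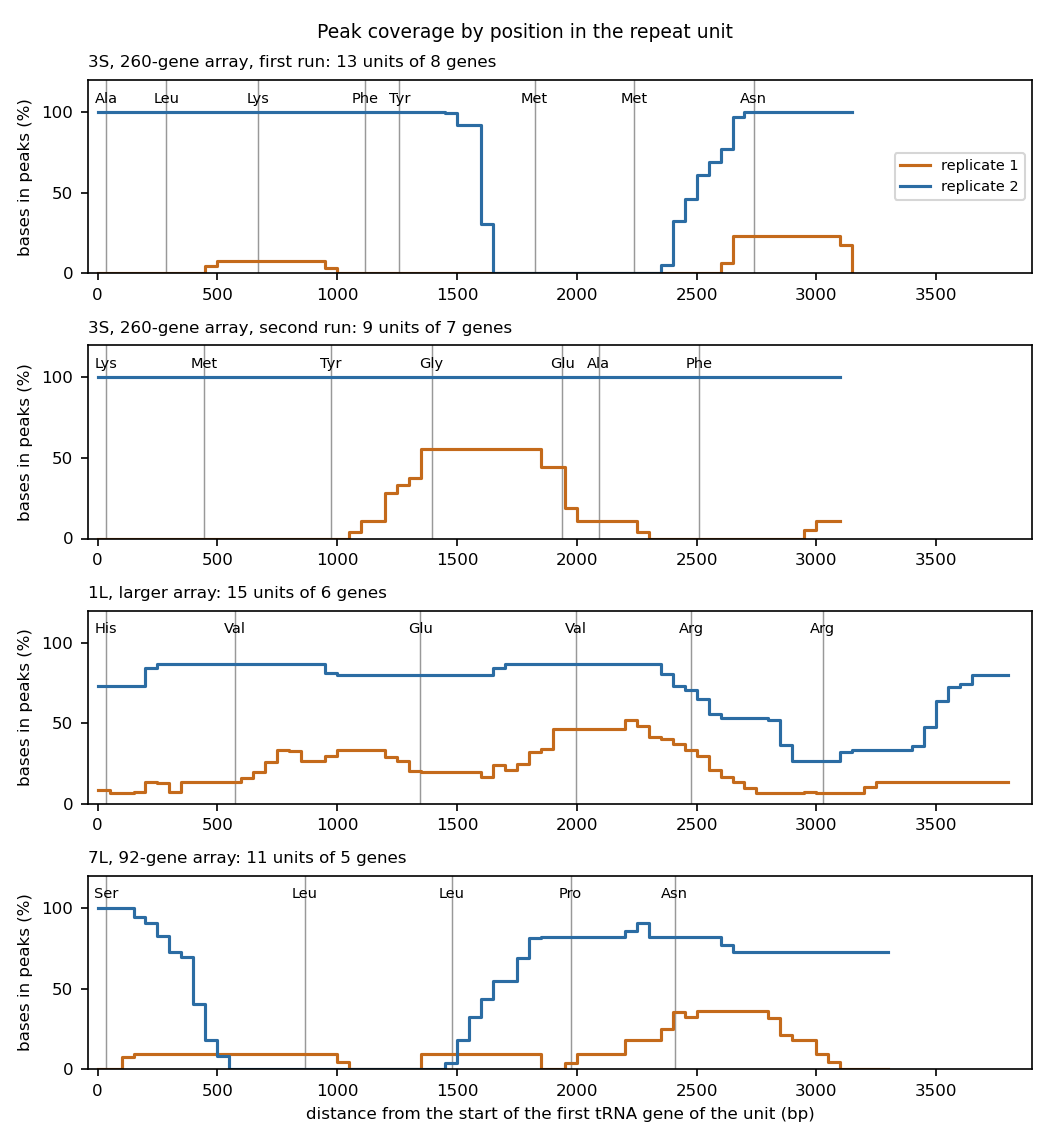
Share of bases in peaks (y axis, %, in steps of 50 bp) by distance from the start of the first tRNA gene of the repeat unit (x axis, bp), over the complete units of 4 runs of genes. Grey lines mark the median places of the tRNA genes by amino acid, and orange and blue lines are replicates 1 and 2. In the upper panel replicate 2 falls from 100% to 0 over both methionine genes, and in the next panel it stays at 100% throughout.

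The unit of the 145-gene array of 1L showed a gap at another gene. Its 15 complete units hold histidine (trnah-gug), valine (trnav-aac), glutamate (trnae-cuc), valine (trnav-cac), arginine (trnar-acg) and arginine (trnar-ccu) genes, with a median step of 3844 bp between histidine genes. In replicate 2 peaks touched 11, 13, 12, 13, 11 and 4 of the 15 genes in that order. In replicate 1 they touched 2, 2, 3, 7, 5 and 1. The trnar-ccu place was the lowest in both replicates, and the trnav-cac place was the highest in replicate 1 and level with trnav-aac as the highest in replicate 2. The 71-gene array of 1L, with the same unit, had 11 of 11 trnav-cac genes and 0 of 11 trnar-ccu genes in peaks in replicate 2. In replicate 1 trnar-ccu was not the lowest there, with 2 of 11 genes beside 1 of 12 trnah-gug and 2 of 13 trnav-aac genes.

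In the 92-gene array of 7L the low places in replicate 2 belonged to leucine genes. Among its 11 complete units replicate 2 had a peak at 11 serine (trnas-gcu), 0 leucine (trnal-aag), 2 leucine (trnal-uag), 9 proline (trnap-cgg) and 9 asparagine (trnan-guu) genes. Replicate 1 had 0, 1, 1, 1 and 4, counts too low to rank the places before asparagine. Over the whole array replicate 1 had 1 of 17 trnas-gcu, 1 of 19 trnal-aag, 1 of 17 trnal-uag and 2 of 17 trnap-cgg genes. It had 7 of 17 trnan-guu genes. Asparagine was the highest place in replicate 1 here, as it was in the 8-gene unit of 3S. The 63-gene array of 3L showed no gap in its first run, while its second run had 24 of 25 genes in a peak in replicate 2. The first run, of 38 genes, had a unit of 1 lysine and 1 glycine gene and a step of 947.5 bp. All 19 units were inside a single 17819-bp peak of replicate 2, and replicate 1 touched 1 unit.

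Units of constant length were not by themselves a mark of peaks. In the 40-gene threonine array of 3L, named after its values were seen, trnat-agu genes recur at a median distance of 1117 bp and 94.1% of the steps are within 5% of it. No gene of that array was in a peak in either replicate. The array of 32 valine genes on 6S, all trnav-uac, recurs at 850 bp with 93.3% of steps within 5% in its run of 31 genes, and it too had none.

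**Figure D4:**
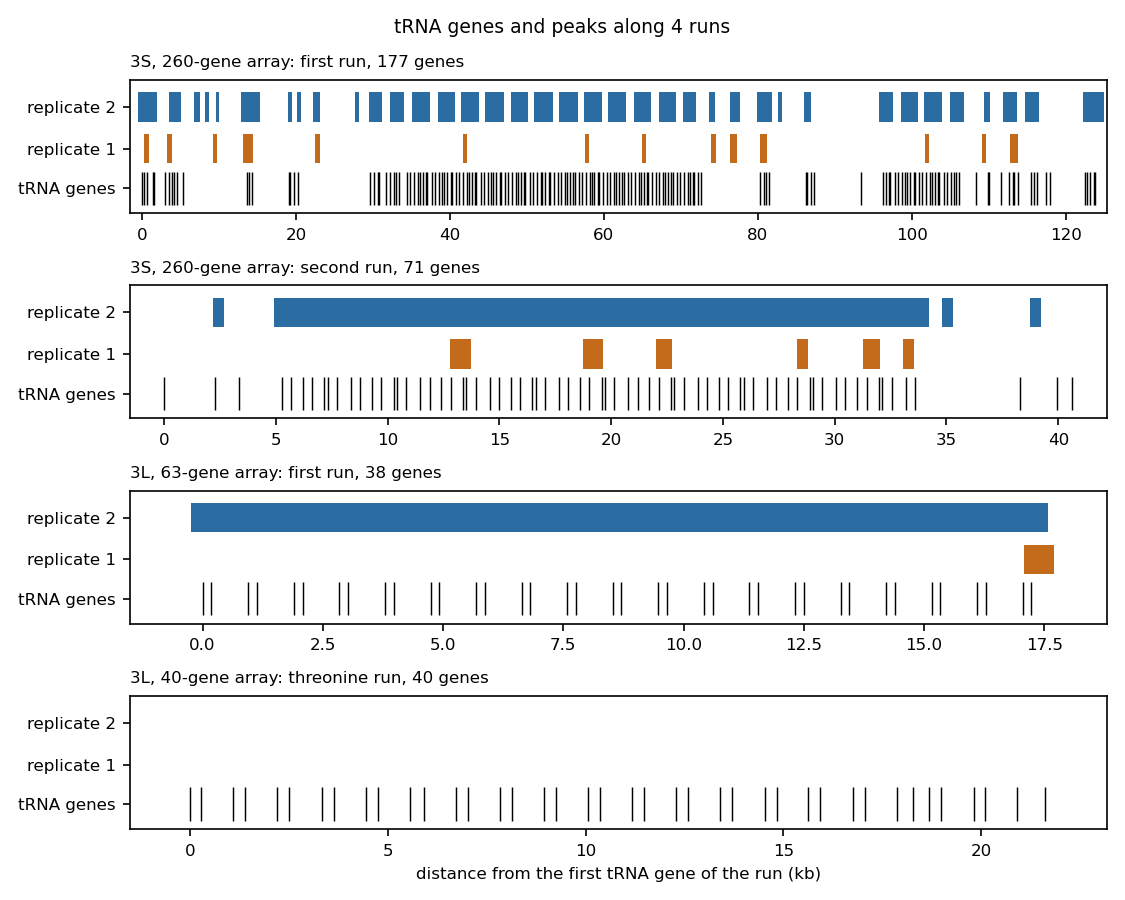
tRNA genes (black ticks) and peaks of replicate 1 (orange) and replicate 2 (blue) along 4 runs of genes, by distance from the first gene of the run (x axis, kb). The upper panel shows the regular breaks in the peaks of replicate 2 along the 177-gene run, the next panels the unbroken blocks over 65 and 38 genes, and the lowest panel a threonine run with no peak.

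Neighbouring genes were often in peaks together in replicate 2 and less so in replicate 1. A single peak can touch several close genes, so genes are not independent. In replicate 2, of the neighbouring array genes no more than 10 kb apart 579 pairs had both genes in a peak, 298 had 1 and 1100 had none. In replicate 1, with 8.67% of array genes in a peak, the counts were 61, 228 and 1688. There, pairs with 1 gene in a peak outnumbered pairs with both, and no expected count was computed. The 809 genes in peaks in replicate 2 lay in 221 peaks, 10 of which held 10 or more genes each and 272 genes in all. The 206 genes in replicate 1 lay in 144 peaks, with at most 7 genes in 1 peak. Of those peaks 69.4% overlapped a peak of replicate 2, beside 61.8% of all peaks of replicate 1.

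The same anticodon could be covered in 1 array and bare in another. For 36 anticodons 5 or more genes stood in each of 2 or more arrays. For 22 of these the share in peaks in replicate 2 differed by more than 50 percentage points between arrays, and for 9 it was 0 in 1 array and 90% or more in another. Lysine trnak-cuu genes were in peaks in 32 of 32 cases in the 63-gene array of 3L and in 12 of 12 in the 25-gene array of 2S, but in 2 of 14 in the 148-gene array of 3L and in 0 of 7 in the 104-gene array of 3S. In replicate 1 the counts in the same order were 3 of 32, 0 of 12, 0 of 14 and 1 of 7. Tyrosine trnay-gua genes were in peaks in 31 of 32 cases in the 260-gene array of 3S and in 0 of 18 in the 35-gene array of 5S, with 1 of 32 and 0 of 18 in replicate 1. Alanine trnaa-ugc genes were in peaks in 22 of 22 cases in the 260-gene array and in 0 of 11 in the 63-gene array of 4L, with 2 of 22 and 0 of 11 in replicate 1. Leucine trnal-caa genes, whose length of over 100 bp in 25 of 26 copies sets them apart (in vertebrates this gene carries an intron), were in peaks in 10 of 10 cases in the 33-gene array of 8L and in 0 of 11 in the 24-gene array of 4S, with none in either array in replicate 1. These named anticodons and arrays were picked for their contrast in replicate 2, and for them differences of that size were not seen in replicate 1. The spread between arrays was not counted over the 36 anticodons in replicate 1. At least trnar-acg differed widely there, with 7 of 12 genes in the 71-gene array of 1L and 0 of 13 in the 148-gene array of 3L. As a summary over all array genes, grouping by the 33 arrays alone took up 52.2% of the variance of being in a peak in replicate 2. Grouping by the 48 anticodons alone took up 29.4%, and by amino acid alone 16.5%. These shares overlap, since arrays differ in the anticodons they hold, and they were not adjusted for the number of groups. In replicate 1 the shares were 8.13%, 8.70% and 4.76%, so that the order seen in replicate 2 was not seen there.

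Amino acids ranged widely, and their order differed between the replicates. In replicate 2 phenylalanine genes were highest, with 40 of 61 (65.6%) in a peak, all 40 in arrays and none of the 19 scattered genes. Proline (54.4% of 103), tyrosine (54.2% of 72), lysine (52.9% of 172) and histidine (50.8% of 61) genes came next. Asparagine stood at 47.9% of 73, glutamate at 45.3% of 117, isoleucine at 40.7% of 118, valine at 40.2% of 194 and glycine at 35.8% of 162. Alanine (27.3% of 139), aspartate (26.6% of 94), methionine (25.5% of 94), arginine (23.4% of 274), glutamine (22.5% of 129) and serine (22.1% of 213) followed, and 45 of 225 leucine genes were in a peak.

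In replicate 1 aspartate (18.1%), histidine (11 of 61 genes), glutamate (17.1%), asparagine (16.4%), valine (14.4%) and isoleucine (11.9%) genes were highest. Phenylalanine, the highest in replicate 2, had 2 of 61 genes in a peak. Arginine (9.12%), serine (8.45%), lysine (7.56%), glycine (7.41%), glutamine (5.43%), leucine (4.89%) and proline (4.85%) genes were in between, and alanine (2.88%), tyrosine (2.78%) and methionine (2.13%) genes were low.

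The share in a peak in both replicates was highest for 3 amino acids. Asparagine had 11 of 73 (15.1%), glutamate 15 of 117 (12.8%) and valine 21 of 194 (10.8%), and histidine had 5 of 61 (8.20%). Glycine (12 of 162, 7.41%), isoleucine (8 of 118, 6.78%) and arginine (17 of 274) followed. Phenylalanine (1 of 61, 1.64%), leucine (4 of 225, 1.78%) and glutamine (1 of 129, 0.775%) were near or under 1.84%, the share of all positions. With so few genes in peaks these low shares say nothing about those amino acids in particular. Counts differed between anticodons of an amino acid, but so did the arrays that hold them, and the 2 were not separated here. Arginine is an example. Of the 79 trnar-acg genes 11 were in a peak in both replicates and of the 30 trnar-ucg genes 6, and of the 94 trnar-ucu and 63 trnar-ccu genes none. The trnar-acg genes had 5 of 24 and 5 of 12 in the 145-gene and 71-gene arrays of 1L. They had 0 of 13 in the 148-gene array of 3L and 0 of 11 in the 104-gene array of 3S. All 6 trnar-ucg genes stood in the 33-gene array of 8L. Similarly, 15 of 73 trnav-cac and 6 of 71 trnav-aac genes made up all 21 valine genes, while none of 50 trnav-uac genes was in a peak in both. At 1.84% few genes of an anticodon would be, so a lack of any says little about trnar-ucu, trnar-ccu or trnav-uac.

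Some amino acids stayed low in both replicates. The shares of all positions were 3.32% in replicate 1, 6.06% in replicate 2 and 1.84% in both. Tryptophan had no gene in a peak in either, of 49 genes, 33 of them in 4 arrays. Threonine had 2 of 215 genes in replicate 1 and 7 in replicate 2 (3.26%), none of them the same gene, although 170 of its genes stand in 5 arrays. Cysteine, which has no array gene, had 1 of 45 in each replicate, not the same gene. With so few genes in peaks, the lack of a shared gene says nothing about threonine or cysteine in particular. Neither of the 2 genes annotated with an anticodon opposite a stop codon (trnastop-uca) was in a peak, and 2 genes are too few to read. Arginine trnar-ucu genes were as low, with 1 of 94 in replicate 1 and 2 in replicate 2, and 74 tRNA genes in adjoining arrays at the end of 9_10L, nearly all of them trnar-ucu, had none. The 4 arrays made of a single anticodon, with 130 genes, had 1 gene in a peak, the same in both replicates.

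**Figure D5:**
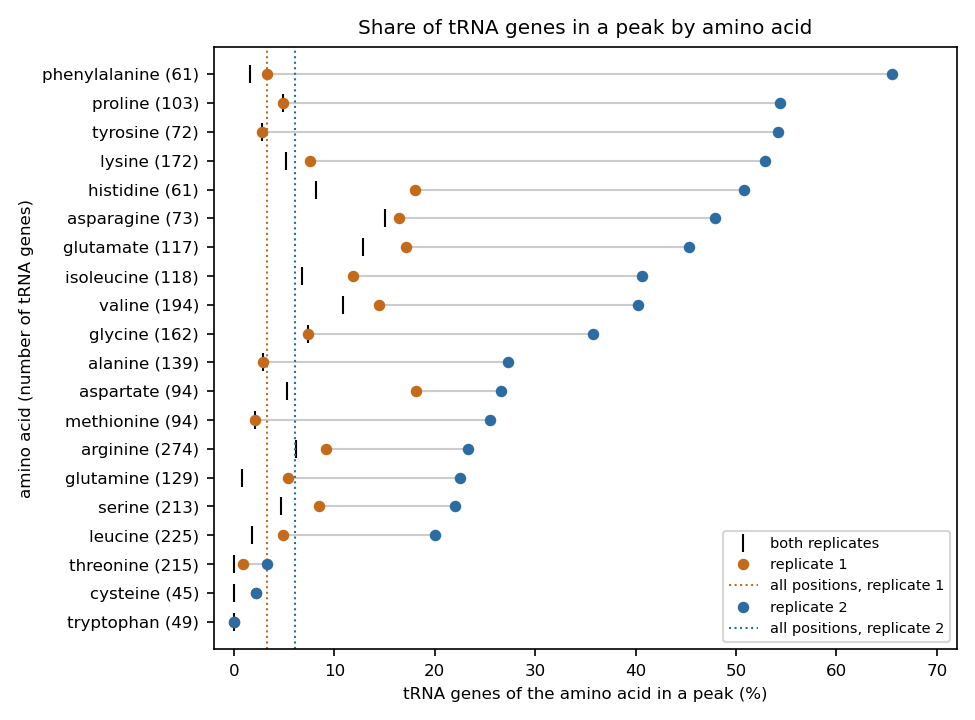
Share of tRNA genes in a peak (x axis, %) by amino acid (y axis, with the number of genes), ordered by replicate 2. Orange and blue points are replicates 1 and 2, black ticks genes in a peak in both, and dotted lines the share of all chromosome positions. Phenylalanine is highest in replicate 2 at 65.6% and low in replicate 1, while threonine, cysteine and tryptophan are under the dotted lines in both.

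Some matching arrays of the L and S copies on chromosome 3 differed widely and others were alike. By the named genes around them, the arrays at 144 to 146 Mb of 3L face those at 120 to 122 Mb of 3S. The 3L arrays hold 223 genes, of which 15 (6.73%) were in peaks in replicate 1 and 30 (13.5%) in replicate 2. The 3S arrays hold 432 genes, with 46 (10.6%) and 315 (72.9%). The 168-gene array of 3L and the 141-gene array of 3S, which also face each other, stood at 3.57% and 3.55% in replicate 1 and at 4.76% and 6.38% in replicate 2. In the first set the gene content differs too, since the glutamine and serine units of the 54-gene array of 3L are not those of the 260-gene array of 3S. Over all arrays replicate 2 had peaks at 29.5% of L genes and 45.1% of S genes, but without those 3S arrays the S share was 14.3%. In replicate 1 the shares were 8.79% for L and 8.51% for S.

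A matched pair of arrays held similar numbers of aspartate genes but differed in their other genes. The 34-gene array of 3L, with 33 trnad-guc genes, had 7 genes in a peak in replicate 1, 2 in replicate 2 and none in both, and all 7 lay in a single 2002-bp peak. Its counterpart, the 54-gene array of 3S with 34 trnad-guc and 19 trnai-aau genes, had 13, 17 and 6. The trnad-guc genes of that 3S array alone had 10, 16 and 5. The 34-gene array was 1 of 3 arrays with more genes in peaks in replicate 1 than in replicate 2. The pair of arrays of alanine, glutamate and tyrosine genes on 5L (28 genes) and 5S (35 genes) was low on both copies, with no gene in replicate 1 and 2 and 1 genes in replicate 2.

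Scattered genes in a peak in both replicates were few, and all 6 are named here. Of these 4 lie close together on 7L: trnav-aac at 126661788-126661860, trnav-cac at 126659358-126659430 and 126667082-126667154, and trnae-cuc at 126654865-126654936. They belong to a group of 18 genes, of valine, glutamate and arginine tRNAs as in the 1L arrays, of which replicate 1 had 4 in a peak, replicate 2 10 and both 4. The others were trnar-acg on 1L at 2946451-2946523, in a group of 18 genes of the same kinds, and trnap-agg on 9_10L at 50910624-50911079, annotated as 456 bp long. Nearest the 20-gene limit on its other side, the smallest array, 21 genes of 3L, had 0 genes in peaks in replicate 1 and 1 in replicate 2, while the 18-gene group of 1L had 5 and 8. Among the 98 genes that were alone in their Mb 1 (1.02%) was in a peak in replicate 1 and 6 (6.12%) in replicate 2. The shares of all positions were 3.32% and 6.06%. A group of 13 alternating aspartate and isoleucine genes on 2L (92644894-92654680), named after its values were seen, had all 13 genes in peaks in replicate 2 and none in replicate 1.

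Array genes inside another annotated gene were in peaks somewhat more often than the rest, at 16.8% of 274 against 7.44% of 1801 in replicate 1 and 40.9% against 34.9% in replicate 2. For scattered genes the order was the reverse. In replicate 1 it was 1 of 54 genes (1.85%) against 25 of 483 (5.18%), and in replicate 2 it was 3 (5.56%) against 66 (13.7%). Counts of 1 and 3 genes are too few to read. The array genes were not separated by array here.

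Protein genes for RNA polymerase III transcription, not all of them for tRNA genes, and for charging tRNAs were checked for peaks within 1 kb of a gene end. Over all 34461 protein-coding genes 11.3% had such a peak at the same end in both replicates. Of 31 genes for RNA polymerase III, its transcription factors and the snRNA activating complex 6 did: brf2.L, a subunit of the TFIIIB form used at snRNA-type promoters, gtf3c1.L, the largest TFIIIC subunit, polr3e.L and polr3k.S, subunits of the polymerase, and snapc3.L and snapc3.S. Of 33 genes for aminoacyl-tRNA synthetases, the enzymes that join amino acids to tRNAs, 4 did, among them cars1.S (cysteine), iars1.S (isoleucine) and qars1.S (glutamine). These are 10 of 64 genes, and with lists this small a difference of this size from 11.3% says nothing about them in particular. Replicate 1 taken alone had 17 and replicate 2 had 23. No share over all protein-coding genes is given for a single replicate, so those counts have no scale.

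Tandem tRNA genes are commonly near copies of each other, and reads from such copies may be placed on any of them or dropped. How far read placement, copy number or CpG content entered the pattern was not tested.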

How the data were processed

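Paired reads were aligned by the authors with bowtie, and only proper pairs were kept. How reads with several matches were placed is not given in the sources used here. Peaks were called by the authors with HOMER 4.11, per the file headers in its histone mode, separately for each MBD capture replicate against its own Input, on the version 10.1 genome. Each peak had a window of 500 bp, tags 4-fold over Input and a Poisson p of at most 0.0001 against Input. At most 1 tag per bp was counted. The deposited files hold chromosome, start, end and a score that is 1 in every row, so neither a height nor a count was used. Other measurements named in the header were not used here.

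Symbols and positions of genes were read from RefSeq, annotated on that genome. The table holds no sequence or strand, so none is shown. Overlap was computed with Python 3.11.15, numpy 2.4.6 and pandas 2.3.3, and figures with matplotlib 3.10.9. The functions were tested on simulated data. A gene was in a peak from 1 bp of overlap. Order within a list was taken from the order of rows. The members and lists were chosen with earlier results of these data known. All amino acids, the 10 largest arrays and every scattered gene in a peak in both replicates were named by rule, and other names are picked examples. Alternatives covered overlap, list length, peak width, the definition of an array and each replicate alone. tRNA genes did not overlap each other and none lay on unplaced scaffolds. The Input libraries were not analysed here. A gene of the synthetase list is not reported here by name.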

Additional observations from a re-analysis of the deposited data

How the results depend on the processing

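With each replicate left out in turn, the share of tRNA genes in a peak ranged from 7.89% to 31.0% beside 5.05% in both. That of array genes ranged from 8.67% to 35.7% beside 6.07%, and that of scattered genes from 4.84% to 12.8% beside 1.12%. The number of arrays with 50% or more of their genes in a peak ranged from 0 to 11 beside 0. The number of RNA polymerase III and synthetase genes ranged from 17 to 23 beside 10, with no single-replicate share over all protein-coding genes to set them against. Counting a peak within 1 kb of the gene raised the shares in both replicates to 19.3% of all, 21.3% of array and 11.4% of scattered genes, and the number of arrays to 3. Within 500 bp the shares were 12.8%, 14.8% and 5.03%. A wider window touches peaks more often at any position. No share of all positions was computed for these 2 windows, so the rise says nothing about tRNA genes. Requiring the whole gene inside the peak gave 4.17%, 5.01% and 0.931%, and only peaks wider than 501 bp gave 3.29%, 4.00% and 0.559%. Scattered genes fell to 0.289% with arrays of 10 or more genes and rose to 1.59% with 50 or more. In alternatives chosen after seeing the data, the number of arrays with 50% or more in replicate 2 ranged from 8 to 14 beside 11, and array genes without the 3S arrays at 120 to 122 Mb stood at 25.9% in replicate 2 and 5.23% in both. No paired analysis was possible because there is 1 group and no test. With 2 libraries the difference between replicates cannot be told apart from depth or capture.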
